A study of Mus musculus with 12 samples.

Results

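The 32 genes described here carry amino acids into the cell, make serine and move its carbon through folate, make asparagine, proline and alanine, or belong to the ATF4 stress programme. They were chosen by name as an amino acid and ATF4 module, not by a threshold, but with earlier results of these data known. They form 32 of the 45321 genes whose transcripts were quantified. All 32 passed the expression filter, which left 14398 genes for testing. RNA was sequenced from total CD4+ T cells of C57BL/6 mouse spleens, isolated untouched, that is by removing the other cells. Cells of all groups were first held for 1 h with 1 µM cyclosporin A (CsA) or with ethanol, its solvent. CsA_PI cells received CsA and then 10 nM phorbol 12-myristate 13-acetate (PMA) with 1 µM ionomycin for 2 h, and ethanol_PI cells received ethanol and the same stimulus. CsA_US and ethanol_US cells received CsA or ethanol and stayed unstimulated. Each group had 3 libraries. Nothing in the labels says that they came from separate animals, and the spread behind the p-values may then be technical.

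T cells that leave quiescence must import amino acids faster than they can make them, and several of the carriers are pairs of a catalytic light chain with the heavy chain Slc3a2. Serine, either imported or made from a glycolytic intermediate, gives its carbon to folate for nucleotide synthesis and methylation. ATF4 is a transcription factor whose translation is favoured when eIF2 is phosphorylated, as in amino acid shortage, and it activates transporter and synthesis genes together with C/EBP-family partners. PMA and ionomycin act downstream of the T cell receptor through protein kinase C and calcium, and CsA with cyclophilin blocks calcineurin, which calcium activates.

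Libraries held 10523816 to 18468044 estimated counts. With no count, a gene could still stand at up to 0.162 to 0.285 CPM (counts scaled to library size), a limit for counting error only. By activation genes the library labelled CsA_PI 2 stood near the unstimulated libraries. The cytokine gene Il2 was at 2.59 CPM in it and at 25.4 and 23.3 CPM in CsA_PI 1 and 3, against 0.330 to 2.42 CPM in the unstimulated libraries. The immediate early gene Egr1 was at 62.2 CPM in it and at 1063 and 1202 CPM in CsA_PI 1 and 3, against 51.1 to 78.5 CPM in the unstimulated libraries. Whether the cells of CsA_PI 2 were stimulated as labelled cannot be told from these data, so CsA_PI values that include it may mix both states. Each comparison was therefore made with 12 libraries and repeated with the 11 that leave it out, and CsA_PI values are given per library, in the order 1, 2 and 3, or as a range. The 7 CD4 T cell markers summed to 3284 to 5845 CPM, with none at 0 in any library. B cell markers summed to 949 CPM in CsA_PI 2, 371 CPM in ethanol_PI 2, 923 CPM in CsA_US 2 and 924 CPM in ethanol_US 2, against 68.9 to 151 CPM in the other 8 libraries. In bulk RNA, fewer cells of a type and less RNA per cell cannot be told apart. Levels below are CPM scaled by the trimmed mean of M values (TMM), except where TPM, which also corrects for transcript length, is named for comparing genes. Fold changes are log2 with their standard error (SE), and a gene was called at an edgeR quasi-likelihood adjusted p under 0.05 over all tested genes.

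Stimulation of ethanol-treated cells raised 16 of the 32 genes and lowered 2, and CsA lowered 13 and raised 2 in stimulated cells. For stimulation, 39.8% of all tested genes were called, 20.1% higher and 19.7% lower, and the median log2 fold change of the 32 genes was 1.19, against −0.02 for all tested genes. For CsA in stimulated cells 23% of genes were called, 10.3% higher and 12.7% lower, and the median was −0.74 for the 32 genes, against 0.06 for all tested genes. Of all calls, 50.5% were higher for stimulation in ethanol with TMM scaling and 22.5% with library totals, and for CsA in stimulated cells 44.8% with TMM scaling and 70.6% with library totals. Because the 32 genes were chosen with earlier results of these data known, the shares and medians only describe the set. These comparisons share the ethanol_PI libraries, so their values stand side by side and their likeness was not measured. With 11 libraries stimulation called 16 of the 32 genes higher and 4 lower (43.7% of genes called, 20.8% higher and 22.9% lower). CsA in stimulated cells then called 2 higher and 11 lower (22.5% of genes called, 10.4% higher and 12.1% lower). In unstimulated cells CsA gave no call among the 32 genes with edgeR, where 0.00695% of genes, a single gene, were called. At an unadjusted p under 0.05 there were 3 of the 32, namely Atf5, Cebpb and Chac1. DESeq2 and limma also called none of the 32 there. With 11 libraries edgeR again called none of the 32 (0.0465% of genes called, 0.00664% higher and 0.0398% lower), and 9 had an unadjusted p under 0.05. The share of all tested genes under that unadjusted threshold was not counted, so no effect of CsA is read from the 3 or the 9.

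**Figure D1:**
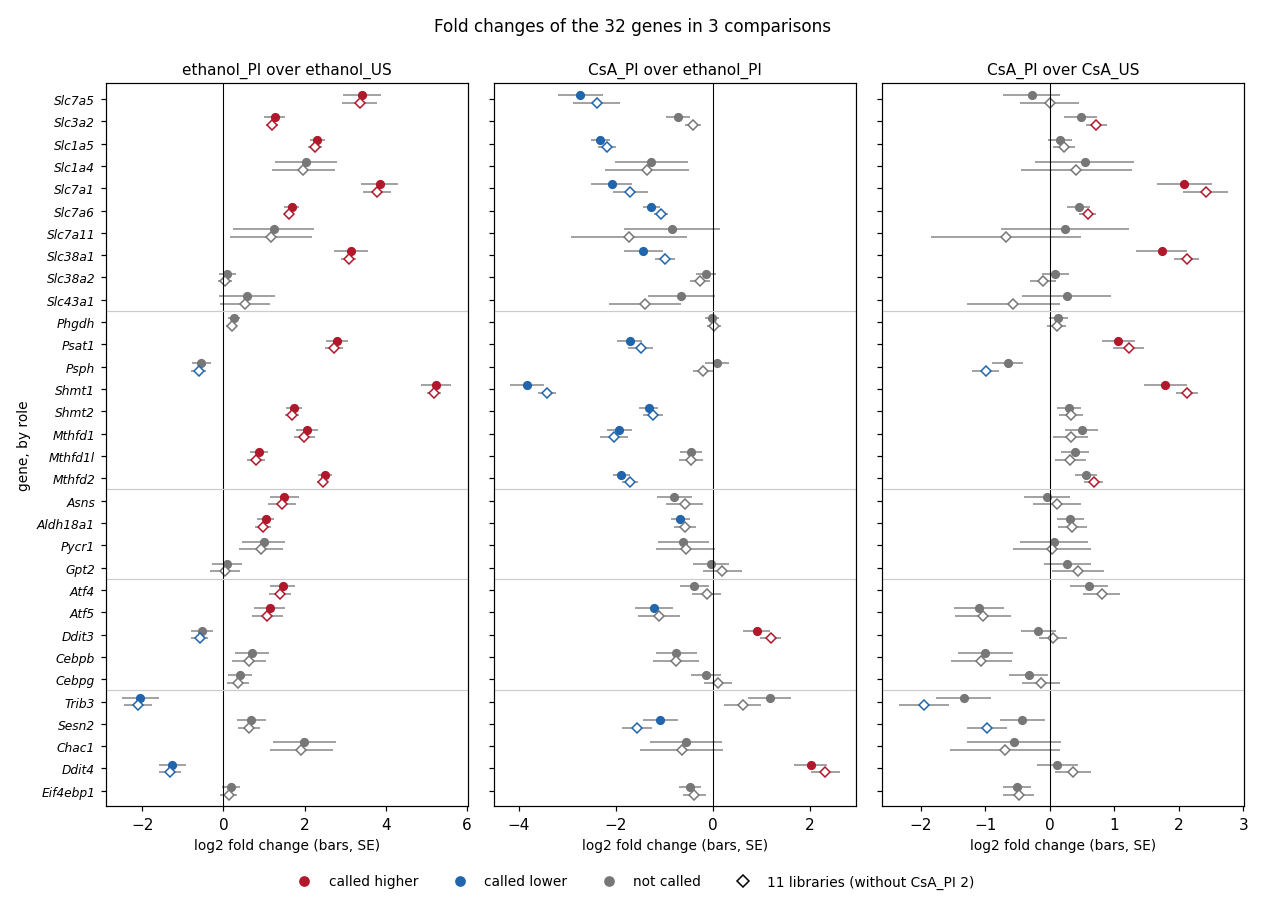
Log2 fold changes of the 32 genes, grouped by role, for ethanol_PI over ethanol_US (left), CsA_PI over ethanol_PI (middle) and CsA_PI over CsA_US (right). Filled points come from 12 libraries and open diamonds from 11, bars are SE, and colour marks the call (red higher, blue lower, grey not called). Most transporters and folate enzymes lie right of 0 on the left panel and left of 0 in the middle one, and Ddit4 lies on the other side of 0 in both.

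Among the 10 transporters, 6 rose with stimulation in ethanol-treated cells, none fell and 4 were not called. CsA lowered 5 of the 10 in stimulated cells and raised none. Slc1a5, an exchanger of glutamine and small neutral amino acids, had 254, 227 and 316 CPM in CsA_PI, 1335, 1237 and 1422 CPM in ethanol_PI, 263, 216 and 240.3 CPM in CsA_US and 307, 216 and 280.0 CPM in ethanol_US. The ethanol_PI libraries lay above all others, and the CsA_PI libraries, CsA_PI 2 included, lay among or near the unstimulated ones. Slc1a5 changed by 2.31 ± 0.20 with stimulation in ethanol (adjusted p = 5.87e-06) and by −2.32 ± 0.20 with CsA in stimulated cells (adjusted p = 1.1e-05). The difference between the stimulation effects, taken as CsA minus ethanol, was −2.16 ± 0.27 (adjusted p = 0.00071).

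Slc7a5 is the light chain of the main importer of leucine and other large neutral amino acids, and lies on chromosome 8 (mm10, 121881150 to 121907694, minus strand). It stood at 28.9, 10.9 and 18.1 CPM in CsA_PI, 135, 95.1 and 155 CPM in ethanol_PI, 9.79, 32.3 and 28.4 CPM in CsA_US and 9.36, 10.9 and 16 CPM in ethanol_US. All 3 ethanol_PI libraries were above the 9 others, and the CsA_PI libraries overlapped the unstimulated ones of both treatments. Slc7a5 rose by 3.41 ± 0.47 with stimulation in ethanol (adjusted p = 0.000203), was lower with CsA in stimulated cells (−2.73 ± 0.46; adjusted p = 0.00132) and differed by −3.69 ± 0.63 between the stimulation effects (adjusted p = 0.00447). In cells under CsA the change with stimulation was −0.28 ± 0.44 with 12 libraries and −0.00 ± 0.45 with 11, neither called. Its partner Slc3a2 had 1129, 525 and 1041 CPM in CsA_PI, 1650.1, 1372 and 1411 CPM in ethanol_PI, 678, 601 and 659 CPM in CsA_US and 625, 541 and 689.8 CPM in ethanol_US. CsA_PI 1 and 3 lay between the ethanol_PI and the unstimulated libraries, and CsA_PI 2 lay below all of them. Slc3a2 rose with stimulation in ethanol (1.26 ± 0.25; adjusted p = 0.00191). With CsA in stimulated cells it changed by −0.72 ± 0.25, not called (adjusted p = 0.0563). A block for the replicate number gave a call (−0.77, adjusted p = 0.0212, and −0.47, adjusted p = 0.0275 without CsA_PI 2). So did leaving out CsA_PI 1 (−0.91, adjusted p = 0.0314) and DESeq2 (−0.71, adjusted p = 0.0236).

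Slc7a1, the carrier of arginine and lysine, had 118, 41.8 and 113 CPM in CsA_PI, 391, 420.2 and 349.8 CPM in ethanol_PI, 18, 27.4 and 18.7 CPM in CsA_US and 25, 41.6 and 14.1 CPM in ethanol_US. CsA_PI 1 and 3 stood clear of both the ethanol_PI and the unstimulated libraries, and CsA_PI 2 stood just above the highest unstimulated one. Slc7a1 rose by 3.85 ± 0.45 with stimulation in ethanol (adjusted p = 6.84e-05) and was lower with CsA in stimulated cells (−2.09 ± 0.42; adjusted p = 0.00406). Stimulation under CsA raised it by 2.09 ± 0.42 with 12 libraries (adjusted p = 0.0395, a call lost in 9 of the 12 fits that left out 1 library) and by 2.41 ± 0.34 with 11 (adjusted p = 0.000423). Slc38a1, a sodium-coupled carrier of glutamine and other small neutral amino acids, had 401, 105 and 406 CPM in CsA_PI, 911, 742 and 819 CPM in ethanol_PI, 77.1, 111 and 86.9 CPM in CsA_US and 78.2, 116 and 86 CPM in ethanol_US. Here CsA_PI 1 and 3 stood between the ethanol_PI and the unstimulated libraries, and CsA_PI 2 lay inside the range of the unstimulated libraries. Slc38a1 rose by 3.14 ± 0.42 in ethanol (adjusted p = 0.000136), was lower with CsA in stimulated cells (−1.44 ± 0.40; adjusted p = 0.0206) and rose under CsA by 2.12 ± 0.19 with 11 libraries (adjusted p = 7.63e-06). The call for CsA in stimulated cells was lost without ethanol_PI 1 (−1.36, adjusted p = 0.0643) or ethanol_PI 3 (−1.44, adjusted p = 0.0519).

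Slc7a6, a light chain that exchanges cationic for neutral amino acids, had 155, 114 and 179 CPM in CsA_PI, 355, 368 and 358 CPM in ethanol_PI, 97.6, 123 and 107 CPM in CsA_US and 119, 106 and 112 CPM in ethanol_US. The spread within each group was small, and CsA_PI 1 and 3 lay above the unstimulated range while CsA_PI 2 lay inside it. It rose in ethanol (1.68 ± 0.18; adjusted p = 2.29e-05) and was lower with CsA in stimulated cells (−1.27 ± 0.18; adjusted p = 0.000284). The other 4 transporters were not called in any of these comparisons. Slc38a2, a relative of Slc38a1 known to respond to amino acid shortage, had 259 to 367 CPM in CsA_PI, 281 to 420 CPM in ethanol_PI, 281 to 298 CPM in CsA_US and 245 to 374 CPM in ethanol_US, and these ranges overlapped. Slc1a4, a carrier of serine, alanine and cysteine, had 0.793, 1.98 and 2.45 CPM in CsA_PI, 2.86, 6.40 and 3.33 CPM in ethanol_PI, 0.0942, 2.03 and 1.50 CPM in CsA_US and 0.846, 1.47 and 0.757 CPM in ethanol_US. Its change with stimulation in ethanol was 2.03 ± 0.77 (adjusted p = 0.0519), called with the replicate block (1.97, adjusted p = 0.0251), without CsA_PI 1 (adjusted p = 0.0482) and without CsA_US 1 (adjusted p = 0.00964). DESeq2 (2.03, adjusted p = 0.0253) and a fit of only the groups compared (1.98, adjusted p = 0.00751) also called it. Slc43a1, a facilitative carrier of large neutral amino acids, stayed between 0.392 and 6.01 CPM in all 12 libraries.

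**Figure D2:**
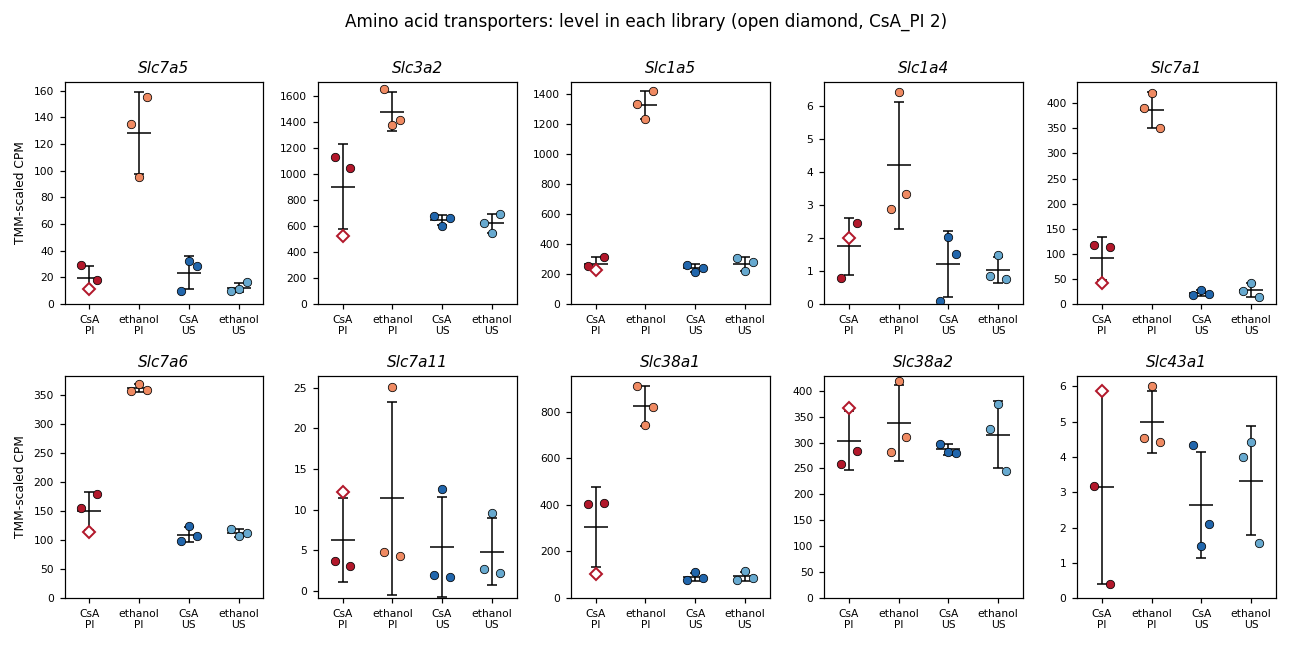
TMM-scaled CPM of the 10 transporters in each library, in the order CsA_PI, ethanol_PI, CsA_US and ethanol_US. Points are libraries, the open diamond is CsA_PI 2, and black bars are the mean and SD of 3 libraries. For Slc1a5 and Slc7a5 only the ethanol_PI points stand high, while for Slc7a1 and Slc38a1 CsA_PI 1 and 3 stand at intermediate levels, and Slc7a11 has 1 high point in every group.

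Slc7a11, the light chain that imports cystine in exchange for glutamate, was highest in the same replicate number of every group. It had 3.65, 12.2 and 3.04 CPM in CsA_PI, 4.77, 25.1 and 4.31 CPM in ethanol_PI, 1.93, 12.5 and 1.72 CPM in CsA_US and 2.71, 9.61 and 2.21 CPM in ethanol_US. Replicate 2 was the highest library of each of the 4 groups, and the B cell marker sums given above were also highest in replicate 2 of each group. Myeloid and dendritic markers, 8 genes, summed to 233 CPM in CsA_PI 2, 204 CPM in ethanol_PI 2, 224 CPM in CsA_US 2 and 238 CPM in ethanol_US 2, against 35.3 to 61.5 CPM in the other 8 libraries. The part of other cells in the Slc7a11 values was not tested. The protein-coding transcript Slc7a11-201 was at 1.35 TPM in CsA_PI 2, 1.90 TPM in ethanol_PI 2, 1.28 TPM in CsA_US 2 and 0.982 TPM in ethanol_US 2, and at 0.0254 to 0.181 TPM in the other 8. The retained-intron transcript Slc7a11-202 spanned 0.689 to 1.51 TPM over all 12 libraries and was also highest in replicate 2 of each group. The stimulation effect in ethanol was 1.24 ± 1.00 without the block (adjusted p = 0.361) and 1.07 with it (adjusted p = 0.00947). Slc7a11-201 also shares a stretch of 373 bases at 95% identity or more with the tubulin genes Tuba1a, Tuba1b and Tuba1c, which makes its counts uncertain.

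**Figure D3:**
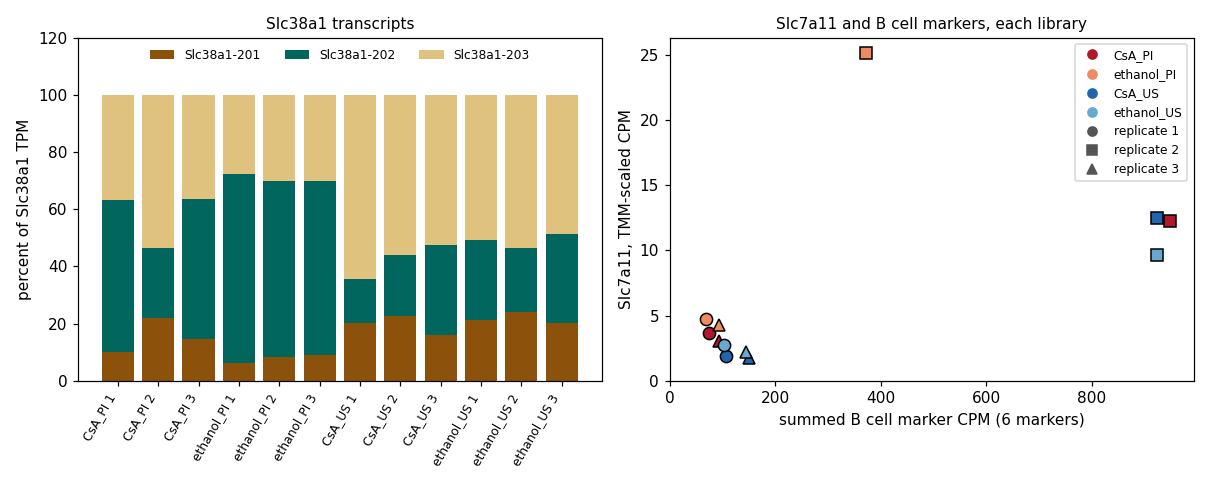
Left, the percent of Slc38a1 TPM in each of its 3 transcripts, by library. Right, Slc7a11 CPM against the summed CPM of 6 B cell markers, with colour for the group and shape for the replicate number. Slc38a1-202 takes 60.9% to 66.1% in ethanol_PI, and the 4 replicate 2 libraries (squares) stand highest for Slc7a11.

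Transcript shares within Slc38a1 differed between groups, which was not tested. Slc38a1-202, a protein-coding transcript of 7059 bases, held 53.3%, 24.8% and 49.1% of the TPM of the gene in CsA_PI, 66.1%, 61.6% and 60.9% in ethanol_PI, 15.4%, 21.2% and 31.3% in CsA_US, and 28.3%, 22.4% and 30.9% in ethanol_US. CsA_PI 1 and 3 lay between the other stimulated and the unstimulated libraries, and CsA_PI 2 among the unstimulated ones. Slc38a1-203, of 7752 bases, was the largest share in all 6 unstimulated libraries and in CsA_PI 2. For Slc1a5 the retained-intron transcript Slc1a5-202 held 47.2% to 63.8% of the TPM in every library, so that the coding transcript alone gave 10.3% to 26.1%. These shares are the authors' kallisto estimates and carry no test.

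Serine synthesis and folate enzymes held the largest change of the 32 genes. Of these 8 genes, 6 rose with stimulation in ethanol and none fell, and CsA lowered 5 in stimulated cells and raised none. Shmt1, the cytosolic serine hydroxymethyltransferase that passes a carbon from serine to folate, lies on chromosome 11 (mm10, 60788104 to 60811718, minus strand). It had 25.5, 9.35 and 30.3 CPM in CsA_PI, 341, 276 and 306 CPM in ethanol_PI, 6.36, 5.73 and 6.67 CPM in CsA_US and 8.29, 9.38 and 6.81 CPM in ethanol_US. The ethanol_PI libraries were far above every other library, CsA_PI 1 and 3 were above all unstimulated ones, and CsA_PI 2 was just below the highest of those. Shmt1 rose by 5.23 ± 0.37 with stimulation in ethanol (adjusted p = 3.09e-06) and was lower with CsA in stimulated cells (−3.83 ± 0.35; adjusted p = 1.64e-05). It still rose by 1.79 ± 0.33 under CsA with 12 libraries (adjusted p = 0.0395) and by 2.13 ± 0.17 with 11 (adjusted p = 3.52e-06), and the stimulation effects differed by −3.44 ± 0.47 (adjusted p = 0.000999). Protein-coding transcripts held 16.5% to 48.8% of its TPM over the libraries, and 184 bases of its exons lie opposite those of Smcr8.

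The other folate enzymes had smaller fold changes than Shmt1. Mthfd2, the mitochondrial methylenetetrahydrofolate dehydrogenase and cyclohydrolase, had 77.6, 57.9 and 84.4 CPM in CsA_PI, 295, 251 and 273 CPM in ethanol_PI, 48.5, 51.9 and 48.7 CPM in CsA_US and 41.9, 55.4 and 47.3 CPM in ethanol_US. It rose by 2.50 ± 0.18 in ethanol (adjusted p = 3.09e-06) and was lower with CsA in stimulated cells (−1.90 ± 0.18; adjusted p = 1.7e-05). CsA_PI 1, 2 and 3 were all above the highest unstimulated library, CsA_PI 2 by the least. Shmt2, which carries out the reaction of Shmt1 in mitochondria, had 106, 97.4 and 110.5 CPM in CsA_PI, 253, 308 and 226 CPM in ethanol_PI, 85.2, 99.4 and 70.2 CPM in CsA_US and 74.5, 94.9 and 65.7 CPM in ethanol_US. It rose by 1.74 ± 0.19 in ethanol (adjusted p = 2.95e-05) and was lower with CsA in stimulated cells (−1.33 ± 0.19; adjusted p = 0.000372), and under CsA its change with stimulation was 0.30 ± 0.19, not called, though the replicate block without CsA_PI 2 gave a call (0.46, adjusted p = 0.019). Mthfd1l, which makes formate in mitochondria, rose by 0.87 ± 0.22 in ethanol (adjusted p = 0.00733), a call lost without ethanol_US 1 (0.65, adjusted p = 0.0592) and with library totals (0.27, adjusted p = 0.369). Its change with CsA in stimulated cells was −0.46 ± 0.22 (adjusted p = 0.159). Mthfd1, the cytosolic enzyme that interconverts folate-bound carbon units, had 23.5, 38 and 35.2 CPM in CsA_PI, 131, 122 and 116 CPM in ethanol_PI, 29.5, 19.2 and 19.7 CPM in CsA_US and 26.7, 39.9 and 22.1 CPM in ethanol_US. The CsA_PI values of Mthfd1 lay inside the range of the unstimulated libraries, with CsA_PI 2 the highest of the 3. It rose in ethanol (2.06 ± 0.26; adjusted p = 8.77e-05) and was lower with CsA in stimulated cells (−1.93 ± 0.26; adjusted p = 0.000245).

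Of the 3 enzymes that make serine, Psat1 alone was called with stimulation in ethanol in the fits of both 12 and 11 libraries. Psat1, the aminotransferase in the middle of the route, had 48.5, 32.6 and 55.3 CPM in CsA_PI, 164, 145 and 140.4 CPM in ethanol_PI, 23.5, 21.9 and 19.9 CPM in CsA_US and 14.6, 30.3 and 20.3 CPM in ethanol_US. All CsA_PI libraries were above the unstimulated ones and below the ethanol_PI ones. Psat1 rose by 2.79 ± 0.27 in ethanol (adjusted p = 1.35e-05), was lower with CsA in stimulated cells (−1.72 ± 0.26; adjusted p = 0.000502) and rose under CsA by 1.22 ± 0.24 with 11 libraries (adjusted p = 0.00204). Phgdh, which starts the route, had 148, 151 and 152 CPM in CsA_PI, 152, 147 and 157 CPM in ethanol_PI, 126, 159 and 127 CPM in CsA_US and 112, 140.1 and 129 CPM in ethanol_US. The CsA_PI and ethanol_PI ranges overlapped each other and CsA_US, and both lay above ethanol_US. The change with stimulation in ethanol was 0.26 ± 0.15 (adjusted p = 0.19) and that with CsA in stimulated cells −0.02 ± 0.15 (adjusted p = 0.953). Psph, which ends the route, had 10.2, 19.6 and 12.3 CPM in CsA_PI, 13.9, 13 and 13.1 CPM in ethanol_PI, 22.7, 22.5 and 21.1 CPM in CsA_US and 16.4, 22.2 and 19.9 CPM in ethanol_US. Psph was not called with 12 libraries (−0.55 ± 0.24; adjusted p = 0.0926) and fell with stimulation with 11, both in ethanol (−0.61 ± 0.18; adjusted p = 0.0151) and under CsA (−0.997 ± 0.21; adjusted p = 0.00292). Psph shares 452 exon bases with Cct6a on the opposite strand, a gene of 2878 to 7824 counts, and whether the counting used strand is not given in the sources used here, so its values are uncertain.

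Per length, in TPM summed over all transcripts of a gene, coding or not, the order of these 8 enzymes changed with stimulation. In ethanol_PI cells Shmt1 stood highest at 268 ± 13.1 TPM, followed by Mthfd2 at 154 ± 0.834 TPM and Shmt2 at 126 ± 24.3 TPM (mean ± SD, n = 3). Protein-coding transcripts held 16.5% to 48.8% of Shmt1 TPM over the libraries, against 87.5% to 100% for Mthfd2 and 100% for Shmt2. The 3 coding transcripts of Shmt1 stood at 8.29 to 41.9 TPM each in ethanol_PI, so Shmt1 did not lead by coding transcripts alone. In CsA_PI cells Phgdh was highest at 93.2, 139 and 109 TPM, and Shmt1 stood at 20.7, 11 and 31.9 TPM. In ethanol_US cells Phgdh was again highest at 115 ± 9.74 TPM, and Shmt1 was at 10.7 ± 2.00 TPM, close to Mthfd1l at 10.3 ± 2.55 TPM. Over the 32 genes, Slc1a5 at 728 ± 72.2 TPM and Slc3a2 at 627 ± 23.6 TPM led in ethanol_PI, and Slc3a2 at 394 ± 54.2 TPM led in ethanol_US. By its 1 coding transcript Slc1a5 stood at 89.7, 111 and 126 TPM in ethanol_PI, below Slc3a2, whose transcripts are all coding.

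**Figure D4:**
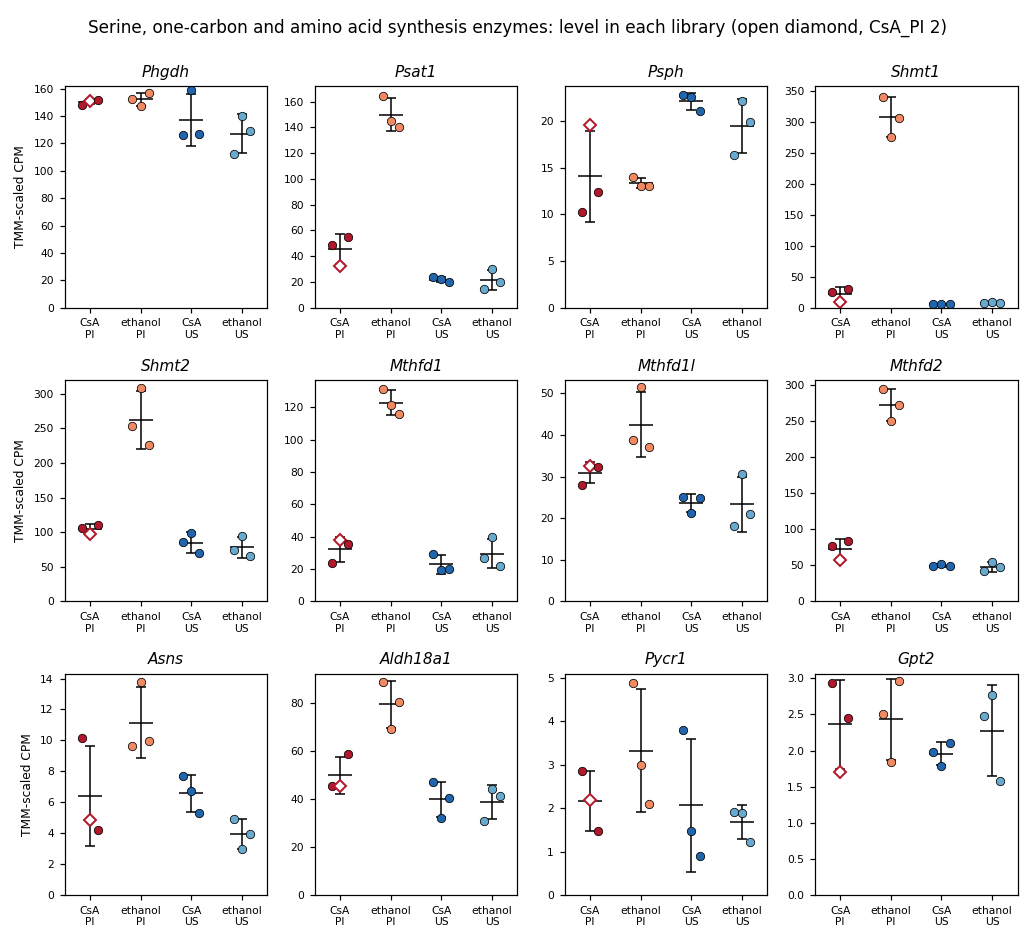
TMM-scaled CPM of the 8 serine and folate enzymes and the 4 asparagine, proline and alanine enzymes in each library, in the order CsA_PI, ethanol_PI, CsA_US and ethanol_US. Points are libraries, the open diamond is CsA_PI 2, and black bars are the mean and SD of 3 libraries. Shmt1, Mthfd1, Mthfd2 and Shmt2 stand high in ethanol_PI, and Phgdh stays between 112 and 159 CPM in all libraries.

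Of the 4 enzymes of asparagine, proline and alanine synthesis, 2 rose with stimulation in ethanol, none fell, and CsA lowered 1 in stimulated cells. Asns, asparagine synthetase and a classical ATF4 target, had 10.2, 4.85 and 4.21 CPM in CsA_PI, 9.65, 13.8 and 9.98 CPM in ethanol_PI, 7.72, 6.72 and 5.32 CPM in CsA_US and 4.91, 2.95 and 3.96 CPM in ethanol_US. It rose in ethanol (1.50 ± 0.36; adjusted p = 0.00573), though not with library totals (0.89, adjusted p = 0.0559). CsA_PI 1 lay inside the ethanol_PI range and CsA_PI 2 and 3 inside the unstimulated range. With CsA in stimulated cells Asns changed by −0.80 ± 0.36 (adjusted p = 0.131), called without CsA_PI 1 (−1.29, adjusted p = 0.0174). Aldh18a1, which starts proline synthesis, had 45.6, 45.4 and 58.9 CPM in CsA_PI, 89.1, 69.5 and 80.4 CPM in ethanol_PI, 47.1, 32.4 and 40.6 CPM in CsA_US and 30.7, 44.5 and 41.3 CPM in ethanol_US. It rose in ethanol (1.04 ± 0.20; adjusted p = 0.0017) and was lower with CsA in stimulated cells (−0.67 ± 0.20; adjusted p = 0.0311), a call lost with 11 libraries (−0.57 ± 0.22; adjusted p = 0.0876). It was also lost without CsA_PI 1, CsA_US 3, ethanol_PI 1, ethanol_PI 3 or ethanol_US 3, with adjusted p up to 0.121. With library totals neither call of Aldh18a1 held (0.43 in ethanol, adjusted p = 0.098, and −0.34 with CsA, adjusted p = 0.235). Pycr1, which ends proline synthesis, was at 0.900 to 4.89 CPM and Gpt2, the mitochondrial alanine aminotransferase, at 1.57 to 2.96 CPM over the 12 libraries, and neither was called.

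Among the 5 ATF and C/EBP factors, Atf4 and Atf5 rose with stimulation in ethanol. With 12 libraries CsA in stimulated cells lowered Atf5 and raised Ddit3. Atf4 had 380.4, 191 and 263 CPM in CsA_PI, 393, 397 and 300.2 CPM in ethanol_PI, 169, 235 and 144 CPM in CsA_US and 105, 189 and 103 CPM in ethanol_US. CsA_PI 1 lay inside the ethanol_PI range, CsA_PI 3 between the stimulated and unstimulated libraries, and CsA_PI 2 inside the unstimulated range. Atf4 rose by 1.46 ± 0.30 in ethanol (adjusted p = 0.00242). Its change with CsA in stimulated cells was −0.39 ± 0.30 with 12 libraries (adjusted p = 0.402) and −0.13 ± 0.29 with 11 (adjusted p = 0.809), so no difference was detectable between these libraries. Its change with stimulation under CsA was 0.61 ± 0.30 with 12 libraries and 0.80 ± 0.29 with 11 (adjusted p = 0.0569), neither called, and 0.99 with 11 and the replicate block, which was called (adjusted p = 0.000998). The difference between the stimulation effects was −0.85 ± 0.42 (adjusted p = 0.243). These are RNA levels, and ATF4 protein, which is set largely by translation, was not measured.

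Atf5, a relative of Atf4 under similar translational control, was expressed at a low level, at 2.54, 1.91 and 1.86 CPM in CsA_PI, 4.77, 5.53 and 4.43 CPM in ethanol_PI, 2.50, 6.84 and 4.20 CPM in CsA_US and 2.71, 2.24 and 1.75 CPM in ethanol_US. CsA_PI lay below ethanol_PI with no overlap, and CsA_US spanned more than both. Atf5 rose in ethanol (1.14 ± 0.39; adjusted p = 0.0326) and was lower with CsA in stimulated cells (−1.22 ± 0.39; adjusted p = 0.0396), and the stimulation effects differed by −2.23 ± 0.55 (adjusted p = 0.023). Each call was fragile: the rise in ethanol was lost without any 1 of 7 libraries (adjusted p up to 0.12), the CsA effect without any 1 of 9 (up to 0.111) and the difference without any 1 of 5 (up to 0.062). The 7 were CsA_US 3 and every library of ethanol_PI and ethanol_US. The 9 were these 7 with CsA_PI 2 and CsA_PI 3, and the 5 were CsA_US 2, CsA_US 3, ethanol_PI 1, ethanol_PI 2 and ethanol_US 3. With library totals Atf5 changed by 0.53 in ethanol (adjusted p = 0.274) and by −0.89 with CsA in stimulated cells (adjusted p = 0.104). Atf5 exons share 82 bases with Il4i1 and Nup62 on the opposite strand.

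Ddit3, the stress factor CHOP, moved against most of the 32 genes. It had 56.1, 30.2 and 60.5 CPM in CsA_PI, 22.8, 29.9 and 26 CPM in ethanol_PI, 49.2, 63.8 and 53.5 CPM in CsA_US and 33.8, 29.2 and 50.6 CPM in ethanol_US. CsA_PI 1 and 3 lay above all ethanol_PI libraries, and CsA_PI 2 lay just above the highest of them. Ddit3 was higher with CsA in stimulated cells with 12 libraries (0.90 ± 0.28; adjusted p = 0.0331) and with 11 (1.19 ± 0.22; adjusted p = 0.00167). The 12-library call was lost without CsA_PI 1 (0.79), CsA_PI 3 (0.72), ethanol_PI 1 (0.80), ethanol_PI 2 (1.01) or ethanol_PI 3 (0.89), with adjusted p up to 0.124. With stimulation in ethanol its change was −0.53 ± 0.27 with 12 libraries (adjusted p = 0.146) and −0.59 ± 0.20 with 11 (adjusted p = 0.0302). The difference between its stimulation effects was not called with 12 libraries (adjusted p = 0.643). In unstimulated cells its mean was 55.5 CPM in CsA_US and 37.9 CPM in ethanol_US, also not called. Ddit3 exons share 68 bases with Mars on the opposite strand. Cebpb, a partner of ATF4, had 3.82 to 4.76 CPM in CsA_PI, 4.85 to 8.87 CPM in ethanol_PI, 3.48 to 11.8 CPM in CsA_US and 3.55 to 5.53 CPM in ethanol_US. Cebpb shares 312 exon bases with Tmem189 on the opposite strand, a gene of 130 to 438 counts where Cebpb had 38.8 to 191, so its values are uncertain. Cebpg, another partner, spanned 11.4 to 27.4 CPM over all libraries. Neither Cebpb nor Cebpg was called in these comparisons.

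The 5 stress and mTORC1 genes held both falls with stimulation in ethanol and no rise. Ddit4, an inhibitor of mTORC1 induced by stress and glucocorticoids, had 17.4, 8.67 and 16.4 CPM in CsA_PI, 3.34, 2.72 and 4.43 CPM in ethanol_PI, 11, 17.6 and 10.5 CPM in CsA_US and 7.67, 9.67 and 7.68 CPM in ethanol_US. The ethanol_PI libraries lay below every other library, and CsA_PI 2, the lowest of its group, was still above them. Ddit4 fell in ethanol (−1.26 ± 0.33; adjusted p = 0.00979) and was higher with CsA in stimulated cells (2.02 ± 0.34; adjusted p = 0.00107). Under CsA its change with stimulation was 0.12 ± 0.32, not called, and the stimulation effects differed by 1.37 ± 0.46 with 12 libraries (adjusted p = 0.0818) and 1.67 ± 0.39 with 11 (adjusted p = 0.0125). Trib3, a pseudokinase induced through ATF4 and CHOP, had 3.89, 11.9 and 5.68 CPM in CsA_PI, 1.55, 4.66 and 3.33 CPM in ethanol_PI, 21, 19.4 and 13.9 CPM in CsA_US and 14.9, 10.4 and 14.4 CPM in ethanol_US. Stimulated libraries were low under both treatments except CsA_PI 2, which reached the unstimulated range. Trib3 fell in ethanol (−2.04 ± 0.45; adjusted p = 0.00324), and under CsA it fell with 11 libraries (−1.95 ± 0.39; adjusted p = 0.00229) and was not called with 12 (−1.33 ± 0.43; adjusted p = 0.08). Its change with CsA in stimulated cells was 1.16 ± 0.45 (adjusted p = 0.0791), called with library totals (1.57, adjusted p = 0.0389), with DESeq2 (1.18, adjusted p = 0.0376) and without CsA_PI 1 (1.46, adjusted p = 0.0309).

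Sesn2, a leucine-binding inhibitor of mTORC1, had 14.5, 38.8 and 19.8 CPM in CsA_PI, 52, 65.3 and 38.8 CPM in ethanol_PI, 42.5, 27.3 and 28.4 CPM in CsA_US and 35.8, 39.1 and 22 CPM in ethanol_US. CsA_PI 1 and 3 lay below every other library, and CsA_PI 2 lay in the unstimulated range at the level of the lowest ethanol_PI library. Sesn2 was lower with CsA in stimulated cells with 12 libraries (−1.09 ± 0.36; adjusted p = 0.0444) and with 11 (−1.57 ± 0.32; adjusted p = 0.003). The 12-library call was lost on leaving out any library but CsA_US 1 and CsA_PI 2, with fold changes of −0.82 to −1.26 and adjusted p up to 0.156, with RLE scaling (−1.08, adjusted p = 0.0508) and with library totals (−0.68, adjusted p = 0.24). With 11 libraries Sesn2 fell with stimulation under CsA (−0.97 ± 0.31; adjusted p = 0.0322) and was not called in ethanol (0.63 ± 0.27; adjusted p = 0.0731, or 0.0462 with the replicate block), and the stimulation effects differed by −1.60 ± 0.41 (adjusted p = 0.0215). Chac1, which degrades glutathione, was at 0.282 to 6.23 CPM. Its change with stimulation in ethanol was 1.99 ± 0.77 (adjusted p = 0.058), called with the replicate block (2.08, adjusted p = 0.0138), without CsA_PI 3 (1.98, adjusted p = 0.0464) and without ethanol_US 2 (3.12, adjusted p = 0.0141). DESeq2 also called it (1.98, adjusted p = 0.0286). Eif4ebp1, a repressor of cap-dependent translation restrained by mTORC1, was at 12 to 23.4 CPM and not called.

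**Figure D5:**
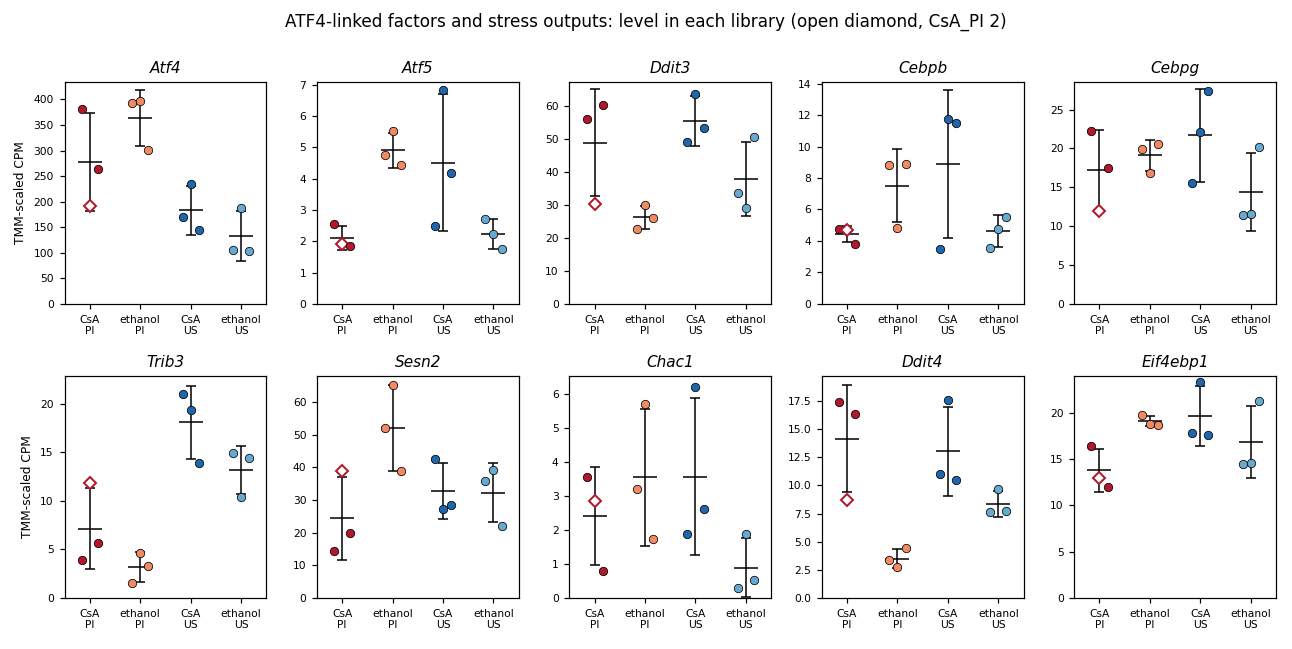
TMM-scaled CPM of the 5 transcription factors (top) and 5 stress and mTORC1 genes (bottom) in each library, in the order CsA_PI, ethanol_PI, CsA_US and ethanol_US. Points are libraries, the open diamond is CsA_PI 2, and black bars are the mean and SD of 3 libraries. Ddit4 is lowest in ethanol_PI, at 2.72 to 4.43 CPM, and Atf4 is highest in stimulated libraries other than CsA_PI 2.

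ATF4 with C/EBP partners binds C/EBP-ATF response elements, so promoters of the 32 genes were searched for the core TGATGNAA on both strands, from 250 bases before to 50 after the RefSeq start (build GRCm38.p6, the same assembly as mm10). Windows were found for 28 of the 32 genes. The core was in 6 of the 28, or 21.4%, against 4.51% of 27025 genes with windows of the same length (a gene counts where any of its windows holds the motif): Asns, Chac1, Pycr1, Slc1a4, Slc7a11 and Trib3. The 32 genes were chosen by name, with known ATF4 targets among them, so a higher share of this core may come from the choice alone. Of the 6 genes with the core, Asns rose with stimulation in ethanol, Trib3 fell and the other 4 were not called. The 4 whose match lies wholly upstream of the start are shown, since Asns and Chac1 are known ATF4 targets; capitals mark the core, and stretches read along the gene's own strand. They lie at chr3:50443633-50443699 (minus) for Slc7a11, chr6:7693214-7693243 (minus) for Asns, chr2:119351029-119351076 (plus) for Chac1 and chr11:120643824-120643871 (minus) for Pycr1.
Slc7a11: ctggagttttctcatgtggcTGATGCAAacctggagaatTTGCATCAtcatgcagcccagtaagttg
Asns: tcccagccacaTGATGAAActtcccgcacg
Chac1: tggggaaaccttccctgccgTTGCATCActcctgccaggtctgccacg
Pycr1: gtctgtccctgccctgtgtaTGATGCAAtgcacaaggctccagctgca
Slc7a11 holds 2 cores on opposite strands, and the other 3 hold 1 each.

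The AP-1 motif TGANTCA, bound by Fos and Jun dimers, was in 2 of the 28 genes (7.14%, against 8.97% of all genes with windows), Slc7a1 and Ddit3, which moved in opposite directions with CsA in stimulated cells. The E-box CACGTG, read by Myc and related factors, was in 2 of the 28 (7.14%, against 8.09%), Aldh18a1 and Slc43a1. The short NFAT core GGAAA was in 15 of the 28 (53.6%, against 64.4%). The 15 were Atf4, Atf5, Cebpg, Chac1, Gpt2, Mthfd1, Mthfd1l, Phgdh, Psat1, Shmt1, Shmt2, Slc1a4, Slc7a1, Slc7a11 and Trib3. No motif but the response element core was above its share in all genes, and for that core the choice of genes by name favours such an outcome. A match describes letters, not binding. The AP-1 matches lie in chr5:148400001-148400047 (minus) for Slc7a1 and chr10:127290543-127290577 (plus) for Ddit3, with the motif in capitals.
Slc7a1: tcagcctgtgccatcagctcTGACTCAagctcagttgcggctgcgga
Ddit3: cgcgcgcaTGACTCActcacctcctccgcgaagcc

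Under CsA, stimulation raised 4 of the 32 genes and lowered none with 12 libraries, where 5.28% of genes were called, 3.9% higher and 1.38% lower. The 4 were Slc7a1, Slc38a1, Psat1 and Shmt1, all described above. All 4 calls were lost when any 1 of 9 libraries was left out: all those of CsA_US and ethanol_PI, CsA_PI 1, CsA_PI 3 and ethanol_US 1, with adjusted p up to 0.211. With the replicate block Slc38a1 (1.68, adjusted p = 0.0576) and Psat1 (1.06, adjusted p = 0.0543) were not called, and with library totals none of the 4 was (0.78 to 1.78, adjusted p up to 0.0706). With 11 libraries 7 of the 32 rose and 3 fell, where 28.7% of genes were called, 14.1% higher and 14.6% lower. Slc3a2 (0.72 ± 0.16; adjusted p = 0.00447), Slc7a6 (0.59 ± 0.13; adjusted p = 0.00466) and Mthfd2 (0.68 ± 0.15; adjusted p = 0.0041) joined the rises, and Psph, Trib3 and Sesn2 made up the falls. Slc1a5 was not called under CsA with either number of libraries (0.15 ± 0.19 and 0.22 ± 0.18).

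The test of the difference between the stimulation effects, CsA minus ethanol, called 9 of the 32 genes lower and none higher with 12 libraries, where 9.72% of genes were called, 3.54% higher and 6.19% lower. The 9 were the transporters Slc7a5, Slc1a5 and Slc7a6 (−1.23 ± 0.25), the enzymes Psat1 (−1.73 ± 0.36), Shmt1, Shmt2 (−1.44 ± 0.27), Mthfd1 (−1.56 ± 0.36) and Mthfd2 (−1.94 ± 0.24), and Atf5. The call of Mthfd1 was lost without ethanol_PI 1 (−1.51), ethanol_US 1 (−1.44) or ethanol_US 3 (−1.34), with adjusted p up to 0.0679, and with library totals (−1.18, adjusted p = 0.0808). Over all genes 36.4% of these calls were higher with TMM scaling and 64.2% with library totals. With 11 libraries 11 were lower, Slc38a1 (−0.96 ± 0.26; adjusted p = 0.0311) and Sesn2 added, and Ddit4 was higher, where 12.4% of genes were called, 5.08% higher and 7.31% lower. Slc7a1 was not called with 12 (−1.76 ± 0.58; adjusted p = 0.0825) or 11 libraries (adjusted p = 0.0886), but was called with 11 libraries and the replicate block (−1.24, adjusted p = 0.0165) and without ethanol_US 2 (−2.22, adjusted p = 0.0343). Asns was called with the replicate block (−1.63, adjusted p = 0.0466) and without CsA_PI 1 (−2.04, adjusted p = 0.0141), and Cebpb without CsA_US 1 (−2.08, adjusted p = 0.0179). DESeq2 also called Slc7a1 (−1.75, adjusted p = 0.018), Asns (−1.54, adjusted p = 0.0272) and Cebpb (−1.69, adjusted p = 0.0464).

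Other genes of the same pathways were read from lists chosen by function, with 12 libraries unless stated. Of all tested genes, 20.1% were called higher and 19.7% lower for stimulation in ethanol. For CsA in stimulated cells these shares were 10.3% and 12.7%, and they stand beside the counts here and in the next paragraph. Of 22 further amino acid transporters tested, stimulation in ethanol raised 3 and lowered 7, and CsA in stimulated cells raised 3 and lowered 1. The mitochondrial glutamate carrier Slc25a22 stood at 20.9, 34.7 and 21.9 CPM in CsA_PI and 64.1, 62.3 and 63.8 CPM in ethanol_PI, a change of −1.29 ± 0.26 with CsA (adjusted p = 0.00368). Of 26 further serine, glycine and folate genes, stimulation raised 7 and lowered 6, and CsA in stimulated cells raised 3 and lowered 6. Gcsh, a subunit of the glycine cleavage system, was at 18.7, 10.8 and 15.4 CPM in CsA_PI, 108, 106 and 108 CPM in ethanol_PI, 7.35, 11.4 and 11.2 CPM in CsA_US and 12.4, 10.5 and 9.08 CPM in ethanol_US. The folate carrier Slc19a1 was at 25.5, 22.2 and 27.8 CPM in CsA_PI, 168, 169 and 147 CPM in ethanol_PI, 18.5, 18.6 and 13.3 CPM in CsA_US and 19.1, 24.5 and 18.7 CPM in ethanol_US. Both were highest in ethanol_PI and differed in the stimulation effect (Gcsh −2.75 ± 0.33, adjusted p = 0.000655; Slc19a1 −2.38 ± 0.26, adjusted p = 0.000433). Of 16 further amino acid synthesis genes, stimulation raised 3 and lowered 4, and CsA in stimulated cells lowered 3 and raised none (lowered 5 with 11 libraries). Bcat1, the cytosolic branched-chain aminotransferase, was at 7.06, 3.41 and 8.82 CPM in CsA_PI and 60.1, 85.9 and 81.1 CPM in ethanol_PI (−3.56 ± 0.75; adjusted p = 0.00613).

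Upstream of ATF4, 8 of 17 eIF2 kinase, subunit and phosphatase genes rose with stimulation in ethanol and 3 fell. CsA in stimulated cells lowered 5 and raised 2 with 11 libraries, and with 12 it lowered 5 and raised 1. The 1 raised was Eif2ak3, which encodes the endoplasmic reticulum kinase PERK, at 233, 93.1 and 298 CPM in CsA_PI, 32.1, 32.9 and 33.1 CPM in ethanol_PI, 97.5, 82.8 and 78.7 CPM in CsA_US and 67.5, 99.3 and 78.7 CPM in ethanol_US. CsA_PI 1 and 3 stood above all other libraries, and CsA_PI 2 lay inside the unstimulated range. Eif2ak3 fell with stimulation in ethanol (−1.32 ± 0.33; adjusted p = 0.00649) and rose under CsA (1.27 ± 0.32; adjusted p = 0.0463 with 12 libraries, and 1.59 ± 0.18; adjusted p = 3.49e-05 with 11), and the effects differed by 2.59 ± 0.46 (adjusted p = 0.00447). Ppp1r15a, a subunit that targets a phosphatase to eIF2, moved the other way with CsA in stimulated cells (−1.86 ± 0.24; adjusted p = 0.000175). Of 28 further ATF4 partners and targets, stimulation raised 14 and lowered 3, and CsA in stimulated cells lowered 7 and raised 1, Txnip. Txnip, an inhibitor of glucose uptake, was at 26.6, 454 and 35.7 CPM in CsA_PI and 18.6, 19.1 and 23.3 CPM in ethanol_PI, so that its level in CsA_PI rests on CsA_PI 2. The 18 genes of the unfolded protein response gave 7 rises and 1 fall with stimulation (8 and 2 with 11 libraries). With CsA in stimulated cells they gave 3 falls and no rise (4 falls and 1 rise with 11 libraries). The 38 genes of mTORC1 and amino acid sensing gave 11 rises and 14 falls with stimulation, and 9 rises and 8 falls with CsA in stimulated cells.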

How the data were processed

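RNA from 12 libraries was profiled by SMART-seq, per the labels' protocols. The submitters' processing notes name cutadapt, kallisto and mm10; versions and transcript annotation are not given in the sources used here. Per the file headers, the authors' tables hold estimated counts and TPM of each transcript, with its length and effective length, which did not vary over the 12 tables. Of 109617 transcripts, 108214 were matched by identifier to the GENCODE annotation of mm10, and the 1403 others, 0.494% to 0.628% of the counts of a library, were left out.

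Estimated counts were summed per gene, rounded and tested with edgeR 4.0.16 in R 4.3.3. The tests used TMM scaling, filterByExpr with the groups (count of at least 10, total of at least 15) and robust quasi-likelihood fits of all 4 groups, with Benjamini-Hochberg adjustment over all tested genes. SE is the absolute log2 fold change over the square root of F. Scripts were tested on simulated data. The 32 genes, the lists and the tests were chosen with earlier results of these data known. Named genes are the 32, Il2 and Egr1 for the library that stood apart, and up to 3 called genes per direction from each pathway list, of which some are shown. Alternatives were RLE scaling, library totals, no filter, DESeq2 1.42.0, limma 3.58.1 on log2(TPM + 1), only the groups compared, leaving out each library, and the replicate number as a block.

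The labels share replicate numbers 1 to 3 between groups without saying what they stand for. Deviations from group means correlated, over genes, by 0.143 to 0.319 between equally numbered libraries of ethanol_PI and ethanol_US, 0.107 to 0.208 for CsA_PI and ethanol_PI, 0.196 to 0.325 for CsA_US and ethanol_US, and 0.0333 to 0.123 for CsA_PI and CsA_US. The main fits did not use the numbers and took the libraries as unpaired. The block, an alternative, pairs equal numbers across every group, CsA_PI and CsA_US included. Values with the block stand beside results whose call they change, or with the other alternatives further below. Promoters come from RefSeq (GRCm38.p6), and 28 of the 32 genes matched.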

Additional observations from a re-analysis of the deposited data

Results flagged for a closer look

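For 9 of the 32 genes the effect of stimulation differed between CsA-treated and ethanol-treated cells by a test of the difference itself, the interaction term of the edgeR fit of 12 libraries. The difference, CsA minus ethanol on the log2 scale, was −3.69 for Slc7a5, −2.16 for Slc1a5 and −1.23 for Slc7a6 among the transporters. It was −1.73 for Psat1, −3.44 for Shmt1, −1.44 for Shmt2, −1.56 for Mthfd1 and −1.94 for Mthfd2 among the enzymes. It was −2.23 for Atf5. Of these 9 calls, 7 held in each of the 12 fits that left out 1 library, and those of Mthfd1 and Atf5 did not. Without CsA_PI 2, the library that stood apart, all 9 were called.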

How the results depend on the processing

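Of 160 fold changes (32 genes in 5 comparisons), 159 kept their direction and their side of the threshold under RLE scaling, 154 without the filter, 153 with the replicate block, 150 with DESeq2, 145 with limma and 144 with library totals. With only the groups compared in the fit, 117 of 128 did, and the interaction has no such fit. With library totals the median over all genes was −0.63 for stimulation in ethanol, 0.40 for CsA in stimulated cells, −0.21 for stimulation under CsA and 0.43 for the interaction. Then Mthfd1l (0.27), Asns (0.89), Aldh18a1 (0.43) and Atf5 (0.53) were not called for stimulation in ethanol. With library totals and without CsA_PI 2, an alternative chosen after seeing the data, 2 values reversed for stimulation in ethanol, Slc38a2 (−0.50, adjusted p = 0.0376) and Phgdh (−0.35, adjusted p = 0.0364), both smaller falls than the median of all genes there (−0.63). The cause of these changes was not tested.

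Among the 32 genes, the 2 falls with stimulation in ethanol became 4, with Psph and Ddit3 added, with library totals, with limma and with the block without CsA_PI 2. They became 6 with library totals without CsA_PI 2. The 16 rises with stimulation in ethanol became 12 with library totals and 14 with limma, and up to 20 with the block without CsA_PI 2. The 2 rises with CsA in stimulated cells became 1 with only the groups compared and 3, with Trib3 added, with library totals or DESeq2. The 13 falls with CsA in stimulated cells became 10 with library totals, limma or no filter, and 9 with only the groups compared. They became 14 with DESeq2 or the replicate block. The 4 rises with stimulation under CsA became 0 with library totals, limma or only the groups compared, 2 without the filter or with the replicate block, and 9 with the block without CsA_PI 2. Falls there went to 1 with DESeq2, 3 with the block without CsA_PI 2 and 6 with library totals without CsA_PI 2, against 0. In the interaction 1 rise appeared, Ddit4, with library totals, DESeq2, limma and both alternatives without CsA_PI 2. The 9 falls of the interaction became 6 with limma and 8 with library totals. They became 10 with the replicate block and 12 with DESeq2. The calls among the 32 genes that the replicate block changed are given with each gene above, except those that follow. With 11 libraries and the block, stimulation in ethanol was also called for Slc1a4 (1.92, adjusted p = 0.0181), Slc7a11 (1.00, adjusted p = 0.0062) and Chac1 (2.06, adjusted p = 0.00772). The block changed no others.

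Over all genes, CsA in unstimulated cells gave 1 call, against 20 with DESeq2, 0 with limma, 15 with the block without CsA_PI 2 and 9 with library totals without it. Stimulation under CsA gave 760 calls, against 2022 with DESeq2, 441 with the replicate block, 30 with limma, 5 with library totals, 0 with only the groups compared, and 4831 and 4906 without CsA_PI 2 with the block and with library totals. The interaction gave 1400 calls, against 2120 with DESeq2 and 2274 with the block without CsA_PI 2.

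Leaving out 1 library at a time gave 4511 to 6581 calls over all genes for stimulation in ethanol, 2233 to 3393 for CsA in stimulated cells, 0 to 7 for CsA in unstimulated cells, 0 to 4320 for stimulation under CsA and 787 to 1865 for the interaction. Among the 32, it gave 14 to 17 rises and 2 to 4 falls for stimulation in ethanol, 1 to 2 rises and 9 to 13 falls for CsA in stimulated cells, 0 to 7 rises and 0 to 3 falls for stimulation under CsA, and 0 to 1 rises and 7 to 11 falls for the interaction. The highest counts for stimulation under CsA came without CsA_PI 2. Genes under about 5 CPM, such as Slc1a4, Slc43a1, Pycr1, Gpt2 and Chac1, have few counts and wide errors.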
